A study of Homo sapiens with 3 samples.

Results

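The mitosis, spindle and kinetochore genes described here are 58 genes, given by a list of gene symbols with no threshold on a measured value, though drawn up with earlier results of these data known, out of 17329 genes in the deposited table. All 58 were found in the table, and all 58 had a mean over the 3 libraries of at least 50 normalized counts, the floor used for every count below. Their single values ran between 155 (CDC25C) and 8650 (MKI67) normalized counts, which are not corrected for gene length. Polyadenylated RNA of Jurkat, a human leukaemia line of the T lineage, was sequenced after 48 hours in 3 media. Oxamate blocks lactate dehydrogenase, the enzyme that makes lactate from pyruvate. One library came from medium with 10 mM L-sodium lactate added to 50 mM sodium oxamate (oxamate+lactate), one from 50 mM sodium oxamate alone (oxamate) and one from standard medium (control). All 3 media shared the same serum-containing base, and the study asked how lactylation of histone H3, a mark that depends on lactate, bears on transcription.

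With 1 library per condition, the differences below could not be checked against replicates, no p-value or standard error is given, and "higher" and "lower" compare libraries. Nothing in the labels says how many cultures stand behind a library. The gene values summed to 8171633 in oxamate+lactate, 8821115 in oxamate and 8220199 in control, and the depth is unknown because no source used here states the number of reads. Levels are given below in normalized counts and differences as log2 ratios of (value + 1), and a log2 ratio of 0.32 (a ratio of 5 to 4) serves as the smaller mark of size and 1.5-fold as the larger. The 18 ERCC spike-in RNAs with a mean of at least 100 spread around their median with an SD of 0.19 for oxamate+lactate against control, 0.13 for oxamate against control and 0.11 for oxamate+lactate against oxamate. This is the scatter between spike-ins within a pair of libraries. It covers neither a shift common to all spike-ins nor differences between cultures. Of 11 T-lineage marker genes all 11 were listed, with sums of 20259 in oxamate+lactate, 21545 in oxamate and 19730 in control, while 11 markers of other lineages had 5 listed, with sums of 328 in oxamate+lactate, 365 in oxamate and 381 in control, and the remaining 6 (MS4A1, CD14, LYZ, ITGAM, HBB and EPCAM) were not analysed here.

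Mitosis depends on a wave of gene expression in G2. The kinase CDK1 with cyclins A and B drives entry, the kinetochore joins each centromere to spindle microtubules, and the spindle checkpoint holds back the anaphase-promoting complex until every chromosome is attached. Securin and cyclin B are then destroyed, separase opens cohesin, and the midzone machinery divides the cell. Many of these genes are held silent outside G2 by the DREAM complex and activated by MuvB with MYBL2 and FOXM1, through a short promoter element called the cell cycle genes homology region (CHR), often near CCAAT boxes bound by NF-Y. In bulk RNA, a smaller share of cells in G2 and mitosis cannot be told apart from less of these RNAs in each such cell.

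Promoter windows from RefSeq (assembly GRCh38.p14, 250 bases before to 50 after a start) were matched by symbol for 49 of the 58 genes. A CHR core, searched as TTTGAA or TTCGAA on both strands, stood in 40 of the 49 (81.6%), against 15.1% of 8427 genes over the floor that have a window and 19.5% of all 27305 genes in the promoter table. CCAAT, searched on both strands, stood in 39 of 49 (79.6%), against 43.8% and 39.7%, and both motifs stood in 32 of 49 (65.3%), against 6.35% and 7.85%. A match is a description of letters and not evidence of binding. The 7 stretches below run from 150 bases before to 20 after the annotated start, and they belong to genes that lay far apart in the expression data. NDC80, SPC25 and KIF23 were lower in both treated libraries, INCENP, BUB1B and MKI67 were higher in oxamate, and CCNB1 encodes the main mitotic cyclin. Capitals mark CHR cores and CCAAT, read on either strand.
NDC80, chr18:2571407-2571576, plus strand: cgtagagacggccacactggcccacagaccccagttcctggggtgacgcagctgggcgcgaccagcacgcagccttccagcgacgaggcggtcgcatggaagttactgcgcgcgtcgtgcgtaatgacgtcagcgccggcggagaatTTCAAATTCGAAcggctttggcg
SPC25, chr2:168890411-168890580, minus strand: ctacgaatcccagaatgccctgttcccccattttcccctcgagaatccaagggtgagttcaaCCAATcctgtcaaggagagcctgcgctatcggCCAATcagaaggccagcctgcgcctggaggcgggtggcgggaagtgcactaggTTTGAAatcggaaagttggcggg
KIF23, chr15:69414199-69414368, plus strand: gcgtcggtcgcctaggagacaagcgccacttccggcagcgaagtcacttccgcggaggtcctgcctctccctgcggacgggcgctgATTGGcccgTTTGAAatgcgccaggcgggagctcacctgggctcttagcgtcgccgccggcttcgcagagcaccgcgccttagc
INCENP, chr11:62123861-62124030, plus strand: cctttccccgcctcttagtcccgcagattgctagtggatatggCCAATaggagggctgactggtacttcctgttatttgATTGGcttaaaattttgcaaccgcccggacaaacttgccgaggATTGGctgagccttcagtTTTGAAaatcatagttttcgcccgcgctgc
BUB1B, chr15:40160919-40161088, plus strand: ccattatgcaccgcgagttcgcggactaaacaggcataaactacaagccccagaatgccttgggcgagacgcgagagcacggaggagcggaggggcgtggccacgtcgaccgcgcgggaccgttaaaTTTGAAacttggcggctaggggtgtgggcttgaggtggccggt
MKI67, chr10:128126404-128126573, minus strand: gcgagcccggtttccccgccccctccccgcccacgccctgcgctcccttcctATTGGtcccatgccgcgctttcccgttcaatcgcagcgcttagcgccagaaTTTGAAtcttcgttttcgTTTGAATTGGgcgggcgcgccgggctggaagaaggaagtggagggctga
CCNB1, chr5:69167000-69167169, plus strand: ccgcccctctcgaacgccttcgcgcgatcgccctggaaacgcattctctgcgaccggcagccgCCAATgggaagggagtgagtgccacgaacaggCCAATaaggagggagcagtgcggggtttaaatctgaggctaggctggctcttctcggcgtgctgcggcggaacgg

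Counting back from the start, the CHR core of INCENP stood at -10 to -5, that of BUB1B at -23 to -18 and that of KIF23 at -55 to -50, and those of NDC80 and SPC25 spanned the start itself, with a further core in NDC80 at 4 to 9. MKI67 had cores at -47 to -42 and at -29 to -24, and the second overlaps a reverse CCAAT. The shown stretch of CCNB1 held CCAAT at -87 to -83 and at -55 to -51 and no CHR core in these letters. The genes with and without a CHR core overlapped in their ratios. For oxamate against control the 40 genes with one had a median log2 ratio of -0.01 and a range of -0.50 to 0.60, and the 9 without had a median of 0.03 and a range of -0.45 to 0.46. The 39 genes with CCAAT had a median of 0.01 for the same pair of libraries, with 6 genes higher by at least 0.32 log2 and 1 lower. The 10 without had a median of -0.11, with 1 higher and 4 lower. Over all genes 23.1% were higher and 11.8% lower, and the median was 0.08 both with CCAAT (3687 genes) and without it (4740 genes). For oxamate+lactate against control no gene was higher, and 3 of the 39 and 2 of the 10 were lower (11.4% and 12.4% of all genes were higher and lower). These splits are descriptions with no test.

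As a group, the mitotic genes were close to their control level in the oxamate library. The median log2 ratio of oxamate against control was 0.01, against 0.08 over all 12292 genes over the floor. This small median changed sign under other scalings, at -0.09 with equal gene totals and -0.07 relative to the all-gene median, and stayed at 0.01 with equal ERCC sums. Of the 58 genes, 7 were higher by at least 0.32 log2 (23.1% of all genes were) and 6 lower by at least 0.32 log2 (11.8% of all genes were), so 12.1% and 10.3% of the mitotic genes. At 1.5-fold, INCENP alone was higher (7.48% of all genes were) and no mitotic gene was lower (3.98% of all genes were). INCENP no longer reached 1.5-fold with equal gene totals (0.50), relative to the all-gene median (0.52) or with the GC trend removed (0.48). Of the 13 genes past 0.32 log2, BUB1B, INCENP, CENPF, KIF20A, NDC80, NUF2 and KNTC1 were past it under all 5 alternatives (equal gene totals, equal ERCC sums, relative to the all-gene median, GC trend removed, pseudocount of 10), and CCNB1, CDC25B, MKI67, CENPE, KIF23 and NCAPG were not. The SD across the 58 genes was 0.25, against 0.38 across all genes. The values of the 58 start at 155 and the 12292 genes at a mean of 50, and SDs of genes at like levels were not compared.

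With oxamate and lactate together, the mitotic genes lay slightly below control. The median was -0.09, against -0.01 over all genes, with 16 genes above 0 and 41 below it (47.9% and 51.3% of all genes were). With equal ERCC sums the median was -0.02, with 26 above 0 and 32 below it, and all genes had a median of 0.06. No mitotic gene was at least 0.32 log2 higher (11.4% of all genes were), 6 were at least 0.32 log2 lower (12.4% of all genes were), and none reached 1.5-fold in either direction (2.99% of all genes higher, 3.07% lower). The 6 lower genes were KNTC1, SPC25, CENPE, NDC80, ZWINT and KIF23, and 5 of these are kinetochore genes by the role list. KNTC1, SPC25 and NDC80 were past 0.32 log2 under all 5 alternatives.

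Against oxamate alone, the oxamate+lactate library was lower for most of these genes, and, as deposited, for most genes at large. The median was -0.13, against -0.09 over all genes, with 47 of 58 genes below 0 (69.7% of all genes were). The median was -0.02 with equal gene totals, with 33 of 58 genes below 0, and -0.06 with equal ERCC sums, with 40 below 0. The median of all genes was 0.02 with equal gene totals. Only KIF20B, CDC25B, INCENP and MKI67 were at least 0.32 log2 lower (8.8% of all genes were) and none was at least 0.32 log2 higher (2.39% of all genes were), and none of these 4 calls was left relative to the all-gene median or under the other scalings. No mitotic gene passed 1.5-fold in this pair of libraries (0.252% of all genes higher, 0.903% lower). The 3 comparisons share libraries pairwise, so a low or high value in one library enters 2 of them. The oxamate+lactate library held the lowest of the 3 values for 31 of the 58 genes (53.4%), against 34.1% of all genes, and the highest for 1 (1.72%), BUB3, against 12.4% of all genes. With equal gene totals it held the lowest value for 21 of the 58 (36.2%), against 19.9% of all genes, and with equal ERCC sums for 19 (32.8%), against 20.4% of all genes. As deposited, the oxamate library held the highest value for 30 of the 58 (51.7%), against 50.8% of all genes. Control held it for 27 (46.6%), against 35.7% of all genes.

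**Figure D1:**
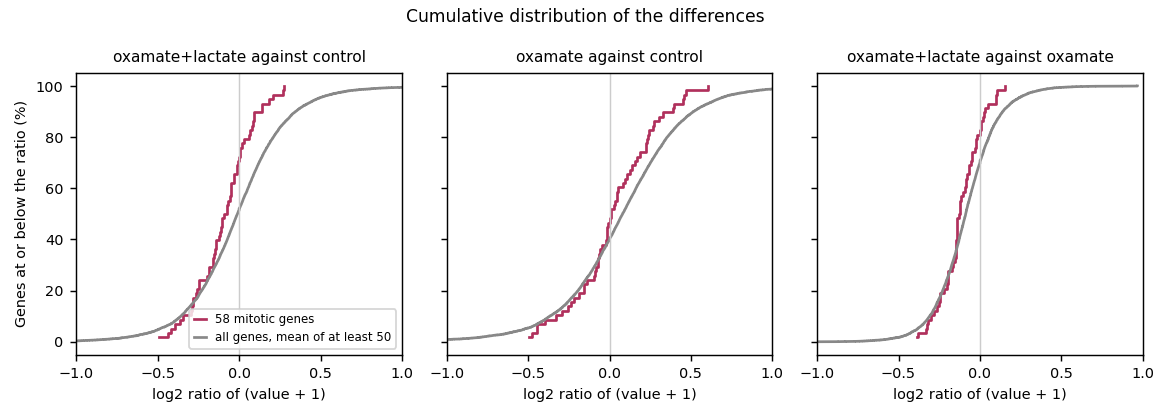
Cumulative distributions of the log2 ratio of (value + 1) for the 58 mitotic genes (red) and the 12292 genes over the floor of 50 (grey), in each pair of libraries. The red curve is steeper than the grey one for oxamate against control, with SDs of 0.25 and 0.38 and medians of 0.01 and 0.08. The grey genes include ones with lower values than any red gene, and genes at like levels were not compared.

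The genes of mitotic entry lay on both sides of control, with CDK1 below it and its cyclin above it. CDK1, the kinase that drives entry, had 983 in oxamate+lactate, 1032 in oxamate and 1176 in control (log2 ratio -0.26 for oxamate+lactate and -0.19 for oxamate, each against control). CCNB1, its mitotic cyclin, had 1462 in oxamate+lactate, 1614 in oxamate and 1285 in control (0.19 and 0.33). CDC25B, a phosphatase that removes the inhibitory phosphates from CDK1, had 1026 in oxamate+lactate, 1335 in oxamate and 1014 in control (0.02 and 0.40). The kinase was thus lower in both treated libraries, the cyclin was lowest in control, and the phosphatase stood out in oxamate alone. CDC25C, the related phosphatase of mitosis, went the other way with 155 in oxamate+lactate, 158 in oxamate and 189 in control (-0.28 and -0.26).

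The remaining genes of entry, like CDK1 and CDC25C, were not past the smaller mark in either comparison with control. CCNA2, the cyclin of S phase and G2, had 1286 in oxamate+lactate, 1416 in oxamate and 1462 in control. CCNB2, the second B-type cyclin, had 733 in oxamate+lactate, 799 in oxamate and 741 in control. FOXM1, the transcription factor that activates G2 genes, had 1631 in oxamate+lactate, 1903 in oxamate and 1542 in control, which is a log2 ratio of 0.08 for oxamate+lactate and 0.30 for oxamate, each against control. FOXM1 thus stood highest in oxamate and below the smaller mark. PLK1, the polo kinase of mitosis, had 1501 in oxamate+lactate, 1729 in oxamate and 1582 in control, and AURKA, the centrosomal Aurora kinase, had 717 in oxamate+lactate, 752 in oxamate and 725 in control. Of the 9 genes of this role, 2 (22.2%) were at least 0.32 log2 higher in oxamate than in control and none was lower. Over all genes 23.1% were higher and 11.8% lower, so the share of higher genes was near that of all genes. With equal gene totals none of the 9 was higher and 1 was lower. All 9 lay below 0 in oxamate+lactate against oxamate, as did 69.7% of all genes, and 6 of 9 did with equal gene totals.

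Spindle checkpoint and anaphase genes lay mostly above control in oxamate. Their median for oxamate against control was 0.22, against 0.08 over all genes, with 8 of 9 above 0 and 5 of 9 above the all-gene median. Of the 9, 1 (11.1%), BUB1B, was higher by at least 0.32 log2, against 23.1% of all genes. With equal gene totals the median was 0.12, with 5 of 9 above 0. BUB1B, which encodes the checkpoint protein BUBR1, had 1199 in oxamate+lactate, 1419 in oxamate and 1038 in control (0.21 for oxamate+lactate and 0.45 for oxamate, each against control). TTK, the kinase MPS1 that starts checkpoint signalling, had 750 in oxamate+lactate, 798 in oxamate and 681 in control. BUB1, the kinase that recruits checkpoint proteins to kinetochores, had 1337 in oxamate+lactate, 1482 in oxamate and 1456 in control. Of these 3 kinases and kinase-like proteins, BUB1B alone passed 0.32 log2, and MAD2L1 and BUB3 were level between oxamate and control.

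MAD2L1, the MAD2 protein that binds CDC20, had 788 in oxamate+lactate, 887 in oxamate and 881 in control. BUB3, which anchors BUB1 and BUBR1 at kinetochores, had 1894 in oxamate+lactate, 1888 in oxamate and 1885 in control, the flattest of the 9. CDC20, the activator of the anaphase-promoting complex and target of the checkpoint, had 1228 in oxamate+lactate, 1511 in oxamate and 1278 in control (0.24 for oxamate against control and -0.30 for oxamate+lactate against oxamate). CDC20 was thus highest in oxamate and near control in oxamate+lactate. UBE2C, the ubiquitin-conjugating enzyme of that complex, had 451 in oxamate+lactate, 535 in oxamate and 541 in control. PTTG1, the separase inhibitor securin, which has a near-identical copy, PTTG2, that can share its reads, had 311 in oxamate+lactate, 371 in oxamate and 318 in control, and ESPL1, separase itself, had 1053 in oxamate+lactate, 1207 in oxamate and 1004 in control. Securin and separase, like CDC20, were highest in the oxamate library.

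In the chromosomal passenger complex, which corrects faulty attachments and later guides cytokinesis, the scaffold stood apart from the other subunits. INCENP, the scaffold, had 1760 in oxamate+lactate, 2219 in oxamate and 1461 in control. Its log2 ratio of 0.60 for oxamate against control was the highest of the 58, and 6.91% of all genes had a higher one. The ratio was 0.27 for oxamate+lactate against control. AURKB, the kinase of the complex, had 648 in oxamate+lactate, 714 in oxamate and 725 in control. BIRC5, the subunit survivin, had 1255 in oxamate+lactate, 1389 in oxamate and 1298 in control, and CDCA8, the subunit borealin, had 736 in oxamate+lactate, 799 in oxamate and 793 in control. These 3 lay between -0.02 and 0.10 for oxamate against control, closer to control than the scaffold, and their signs depend on the scaling: with equal gene totals 1 of the 4 genes of the complex lay above 0, against 3 as deposited. INCENP also had the highest transcript GC content of the 58, at 59.6%.

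The centromere and kinetochore genes were the role with the lowest median in both treated libraries. It was -0.34 for oxamate+lactate against control and -0.29 for oxamate against control, with 7 of 9 genes below 0, and 7 of 9 below the all-gene median, in each. Under equal gene totals, equal ERCC sums and ratios relative to the all-gene median, it was -0.34, -0.28 and -0.33 for oxamate+lactate against control and -0.39, -0.29 and -0.37 for oxamate against control. For oxamate+lactate against control 5 of the 9 (55.6%) were at least 0.32 log2 lower and none higher, against 12.4% and 11.4% of all genes. For oxamate against control 4 (44.4%) were lower and 1 (11.1%) was higher, against 11.8% and 23.1% of all genes. For oxamate+lactate against oxamate the median was -0.05, against -0.09 over all genes, and it was 0.06 with equal gene totals. The sums over the 9 genes were 7470 in oxamate+lactate, 8038 in oxamate and 8312 in control, where CENPF is the largest term and was above control in both treated libraries.

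The NDC80 complex, the rod that binds microtubules, was below control in both treated libraries for all 4 subunits, by little for SPC24 in oxamate. NDC80 had 388 in oxamate+lactate, 362 in oxamate and 511 in control, and its log2 ratio of -0.50 for oxamate against control was the lowest of the 58, with 5.44% of all genes lower. NUF2, its coiled-coil partner, had 438 in oxamate+lactate, 393 in oxamate and 535 in control (-0.29 for oxamate+lactate and -0.44 for oxamate, each against control). SPC25, of the centromere-facing end of the complex, had 186 in oxamate+lactate, 206 in oxamate and 252 in control (-0.44 for oxamate+lactate and -0.29 for oxamate, each against control). In all 3 the control value was the highest of the 3 libraries. SPC24, the partner of SPC25, had 552 in oxamate+lactate, 664 in oxamate and 671 in control, level between oxamate and control.

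KNTC1, CENPE and ZWINT were also highest in control, and CENPF was lowest there. KNTC1, the ROD subunit that brings dynein to kinetochores, had 1050 in oxamate+lactate, 1063 in oxamate and 1476 in control (-0.49 for oxamate+lactate and -0.47 for oxamate, each against control). CENPE, a kinesin that carries chromosomes to the spindle equator, had 761 in oxamate+lactate, 747 in oxamate and 1019 in control (-0.42 and -0.45). ZWINT, which links ROD to the kinetochore, had 961 in oxamate+lactate, 1048 in oxamate and 1220 in control (-0.34 and -0.22). For KNTC1 and CENPE both treated libraries lay close together and well below control, and the values of the 2 treated libraries differed by at most 0.03 on the log2 scale. CENPA, the histone H3 variant that marks centromeres, had 280 in oxamate+lactate, 290 in oxamate and 274 in control, nearly level. CENPF, a large protein of the outer kinetochore and nuclear envelope, had 2854 in oxamate+lactate, 3265 in oxamate and 2354 in control, with ratios of 0.28 and 0.47, and it had the highest ratio of the 58 for oxamate+lactate against control.

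**Figure D2:**
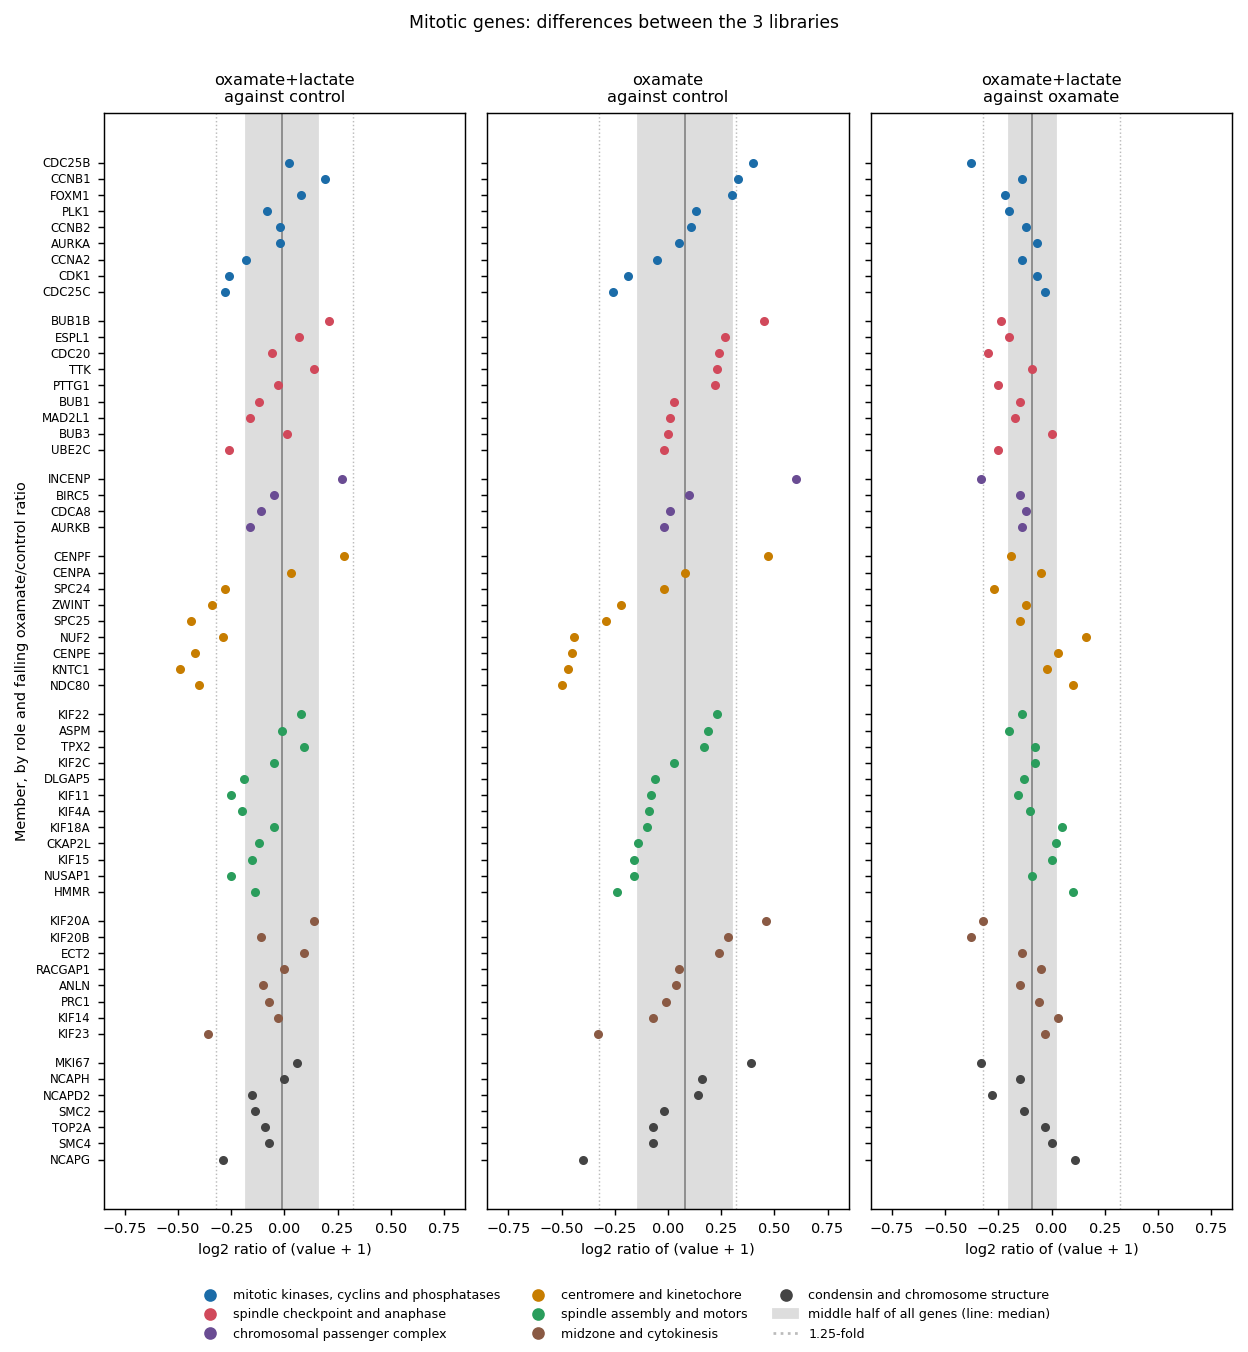
Log2 ratio of (value + 1) of each of the 58 mitotic genes in 3 pairs of libraries, with genes grouped and coloured by role and the interquartile range and median of all 12292 genes in grey, and dotted lines at a log2 ratio of 0.32 in either direction (labelled as a fold). NDC80, KNTC1, CENPE and NUF2 form the low end for oxamate against control, at -0.50 to -0.44, and INCENP the high end at 0.60.

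Spindle assembly genes and motors differed little, and none of the 12 was at least 0.32 log2 different in any pair of libraries as deposited, with 1 lower in oxamate than in control under equal gene totals, HMMR (-0.34), and 1 higher with the GC trend removed, ASPM (0.33). Their medians were -0.13 for oxamate+lactate against control, -0.09 for oxamate against control and -0.09 for oxamate+lactate against oxamate, the last of these 0.02 with equal gene totals. TPX2, which activates AURKA on the spindle, had 2498 in oxamate+lactate, 2635 in oxamate and 2341 in control. KIF11, the motor that pushes spindle poles apart, had 994 in oxamate+lactate, 1113 in oxamate and 1180 in control. KIF15, which works beside KIF11, had 723 in oxamate+lactate, 721 in oxamate and 804 in control. TPX2 was thus slightly above control, and the pole-separating motors slightly below it. KIF18A, which dampens chromosome movement, had 271 in oxamate+lactate, 262 in oxamate and 280 in control. KIF22, a chromosome-arm motor, had 1709 in oxamate+lactate, 1886 in oxamate and 1613 in control. KIF2C, a microtubule depolymerase at centromeres, had 1123 in oxamate+lactate, 1191 in oxamate and 1163 in control. Among these 3, KIF22 had the widest ratio, 0.23 for oxamate against control.

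KIF4A, a chromosome-bound motor, had 544 in oxamate+lactate, 585 in oxamate and 623 in control, and a retrogene copy of nearly the same sequence, KIF4B, is known in the genome, so its reads are uncertain. HMMR, a spindle pole protein, had 598 in oxamate+lactate, 559 in oxamate and 659 in control, the lowest ratio of this role for oxamate against control (-0.24). ASPM, which focuses the spindle poles, had 2112 in oxamate+lactate, 2423 in oxamate and 2125 in control. NUSAP1, which bundles microtubules near chromosomes, had 1129 in oxamate+lactate, 1200 in oxamate and 1340 in control. ASPM was highest in oxamate, while HMMR and NUSAP1 were highest in control. DLGAP5, which stabilises spindle fibres, had 708 in oxamate+lactate, 775 in oxamate and 806 in control, and CKAP2L, a spindle protein, had 378 in oxamate+lactate, 373 in oxamate and 410 in control, both highest in control by small margins.

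Genes of the midzone and of cytokinesis were split between a higher kinesin and a lower one, around a median of 0.05 for oxamate against control that was -0.06 with equal gene totals. KIF20A, the kinesin that moves the passenger complex to the midzone, had 662 in oxamate+lactate, 825 in oxamate and 600 in control (0.46 for oxamate against control and -0.32 for oxamate+lactate against oxamate). KIF20B, a relative that acts late in cytokinesis, had 480 in oxamate+lactate, 627 in oxamate and 518 in control (0.28 and -0.38). KIF23, the motor subunit of centralspindlin, had 741 in oxamate+lactate, 757 in oxamate and 953 in control (-0.33 and -0.03). Both KIF20 genes were thus highest in oxamate, with KIF20B short of the smaller mark against control, and KIF23 was highest in control. KIF20A overlaps BRD8 and CDC23 in the annotation, strand is not marked by the library kit, and these had log2 ratios of 0.10 and -0.01 for oxamate against control. Their part in the KIF20A values was not tested.

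RACGAP1, the other subunit of centralspindlin, had 901 in oxamate+lactate, 931 in oxamate and 901 in control, level where KIF23 was lower. ECT2, the exchange factor that RACGAP1 recruits to activate RhoA, had 1010 in oxamate+lactate, 1115 in oxamate and 946 in control. PRC1, which bundles midzone microtubules, had 1290 in oxamate+lactate, 1342 in oxamate and 1353 in control. These 3 stayed within 0.24 of control on the log2 scale in both treated libraries. ANLN, the scaffold anillin of the contractile ring, had 624 in oxamate+lactate, 691 in oxamate and 670 in control, and KIF14, which localises citron kinase, had 836 in oxamate+lactate, 817 in oxamate and 856 in control. Of the 8 genes of this role, 1 (12.5%) was at least 0.32 log2 higher and 1 (12.5%) lower in oxamate than in control. Over all genes 23.1% were higher and 11.8% lower.

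Chromosome structure genes lay close to control apart from MKI67 and NCAPG. MKI67, the coat protein of mitotic chromosomes known as the proliferation marker Ki-67, had 6905 in oxamate+lactate, 8650 in oxamate and 6616 in control (0.06 for oxamate+lactate and 0.39 for oxamate, each against control). TOP2A, the topoisomerase that untangles sister chromatids, had 4895 in oxamate+lactate, 4985 in oxamate and 5227 in control. The marker was thus higher in oxamate alone, while the topoisomerase differed little. In condensin I, NCAPG, one of the HEAT-repeat subunits, had 879 in oxamate+lactate, 817 in oxamate and 1077 in control (-0.40 for oxamate against control). NCAPD2, the other one, had 2207 in oxamate+lactate, 2686 in oxamate and 2441 in control (0.14). NCAPH, the kleisin that joins them to the core, had 621 in oxamate+lactate, 691 in oxamate and 619 in control. NCAPG was lowest in oxamate, where NCAPD2 and NCAPH were highest. The core ATPases SMC2, with 1623 in oxamate+lactate, 1770 in oxamate and 1791 in control, and SMC4, with 2036 in oxamate+lactate, 2036 in oxamate and 2140 in control, had ratios between these for oxamate against control. NCAPG overlaps LCORL in the annotation, which had a log2 ratio of -0.20 for oxamate against control, and the part of LCORL in the NCAPG values was not tested.

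**Figure D3:**
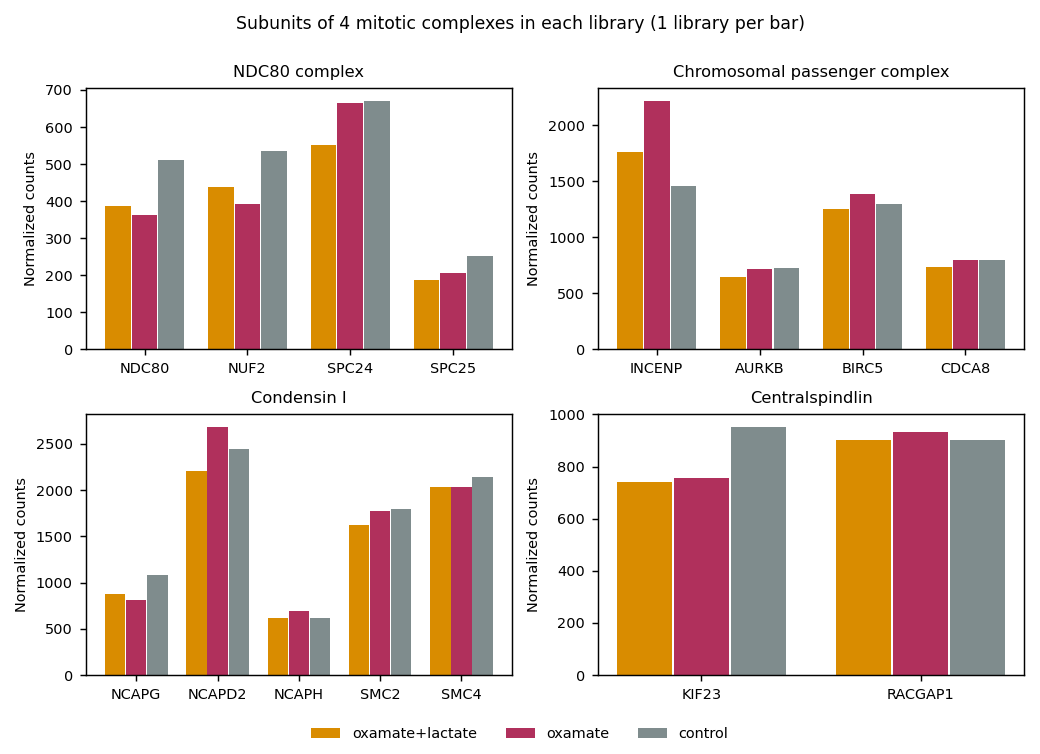
Normalized counts of the subunits of the NDC80 complex, the chromosomal passenger complex, condensin I and centralspindlin, with 1 bar per library and no error bars because each condition has 1 library. NDC80 and NUF2 are highest in control, at 511 and 535, and SPC24 is level between oxamate (664) and control (671), and INCENP is highest in oxamate (2219).

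Transcript GC content moved with the differences. It was taken from the longest GENCODE 29 transcript for all 58 genes, with a median of 42.9% and a range of 34.2% to 59.6%, against a median of 48.2% over 11206 genes. Across the 58 genes the Spearman correlation of GC content with the log2 ratio was 0.48 for oxamate against control, and across all genes it was 0.31. For oxamate+lactate against control it was 0.31 across the 58 genes and 0.24 across all genes, and for oxamate+lactate against oxamate it was -0.50 and -0.23. The points of each correlation share 2 libraries, and the comparisons share libraries with each other. The 29 genes with GC content at or above the member median had a median ratio of 0.13 for oxamate against control, with 6 higher by at least 0.32 log2 and none lower, and the 29 below it had -0.07, with 1 higher and 6 lower. Over all genes 23.1% were higher and 11.8% lower by that mark.

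With the smoothed GC trend of all genes removed and their median kept, an alternative chosen after the data were seen, 10 of the 58 genes were at least 0.32 log2 higher and 3 lower in oxamate than in control. As deposited, 23.1% of all genes were higher and 11.8% lower, and the shares of all genes after this adjustment were not computed, so these counts have no like background. The 3 lower genes were NDC80 (-0.39), KNTC1 (-0.37) and NUF2 (-0.33), and CENPE, NCAPG and KIF23 were at -0.27, -0.28 and -0.24. Among the higher ones were CENPF (0.58), BUB1B (0.54), INCENP (0.48), KIF20B (0.47) and KIF20A (0.46). Set against control, oxamate+lactate was the lower library for KNTC1 (-0.42), SPC25 (-0.37), ZWINT (-0.35) and NDC80 (-0.33), all past 0.32 log2 after this adjustment, and CENPE was just short of the mark at -0.32. The part of GC content in these differences was not tested beyond this adjustment.

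**Figure D4:**
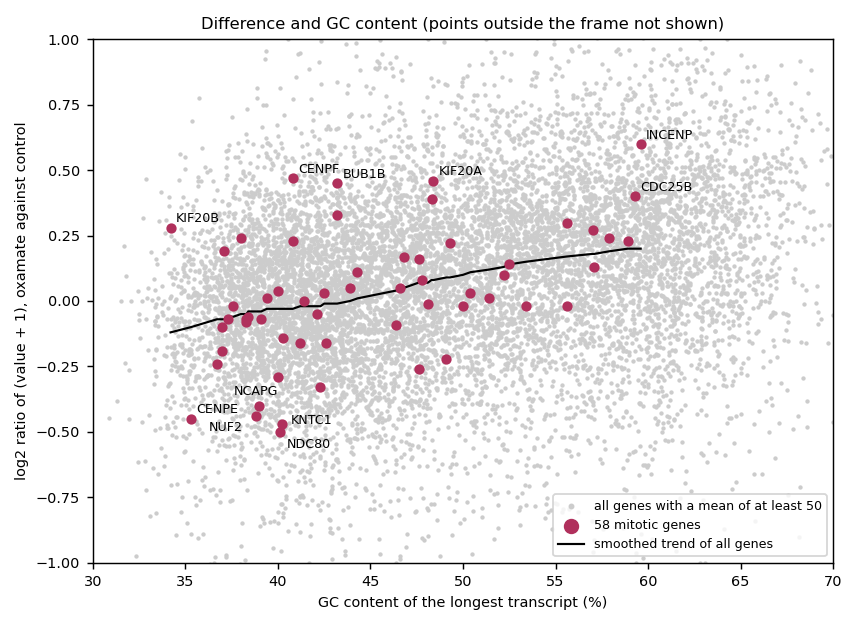
GC content of the longest transcript (%) against the log2 ratio of oxamate against control for the 58 mitotic genes (red) and all genes over the floor of 50 (grey), with the smoothed trend of all genes (black). INCENP, at 59.6% GC, is the highest red point, and NDC80, at 40.1%, the lowest. Points beyond the frame are not drawn, and the trend is drawn over the GC range of the red points.

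A list of other mitotic genes, with 119 names, had 118 in the table and 117 over the floor. Their medians were close to those of the 58, at -0.06 for oxamate+lactate against control (0.00 with equal ERCC sums), 0.00 for oxamate against control (-0.10 with equal gene totals) and -0.09 for oxamate+lactate against oxamate (0.02 with equal gene totals). For oxamate against control 14 (12.0%) were at least 0.32 log2 higher and 14 (12.0%) lower, against 23.1% and 11.8% of all genes. For oxamate+lactate against control 2 (1.71%) were higher and 16 (13.7%) lower, against 11.4% and 12.4% of all genes, so the shares of lower genes were near those of all genes. None was higher and 3 (2.56%) were lower for oxamate+lactate against oxamate, against 2.39% and 8.8% of all genes. With equal gene totals 4 were higher and 21 lower for oxamate against control. At 1.5-fold, 1 gene was lower in oxamate than in control (3.98% of all genes were). In oxamate+lactate, 4 of the 117 were lower than in control by that size (3.07% of all genes were). None was 1.5-fold higher than control in oxamate or in oxamate+lactate (7.48% and 2.99% of all genes were).

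Of the 4 genes 1.5-fold lower in oxamate+lactate than in control, 3 belong to the inner kinetochore. CENPK, of the inner kinetochore network that sits on CENPA chromatin, had 241 in oxamate+lactate, 229 in oxamate and 379 in control (-0.65 for oxamate+lactate and -0.72 for oxamate, each against control). CENPH, which forms a subcomplex with CENPK, had 299 in oxamate+lactate, 324 in oxamate and 463 in control (-0.63 and -0.51). ITGB3BP, the network protein CENP-R, had 323 in oxamate+lactate, 357 in oxamate and 524 in control (-0.70 and -0.55). All 3 were highest in control. Among the 30 other centromere and kinetochore genes over the floor the median was -0.12 for oxamate+lactate against control and -0.03 for oxamate against control, with 5 of 30 (16.7%) lower by at least 0.32 log2 in each, against 12.4% and 11.8% of all genes. With equal gene totals 8 of the 30 were lower in oxamate than in control. MAD1L1, which anchors MAD2 at kinetochores, had 393 in oxamate+lactate, 370 in oxamate and 320 in control and CENPT, which links the inner network to the NDC80 complex, had 861 in oxamate+lactate, 954 in oxamate and 717 in control. These were the highest of that list in 1 comparison each, at 0.30 for oxamate+lactate and 0.41 for oxamate, both against control.

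The anaphase-promoting complex list (17 genes) had a median of -0.01 for oxamate against control, with 2 genes (11.8%) at least 0.32 log2 higher and 4 (23.5%) lower, against 23.1% and 11.8% of all genes. Beside subunits, the list holds regulators of the complex, and a regulator is among the 4 lower genes. CDC26, a small subunit of the complex, had 81 in oxamate+lactate, 87 in oxamate and 124 in control and was 1.5-fold lower in oxamate+lactate than in control (-0.61). ANAPC2, the cullin subunit, had 784 in oxamate+lactate, 937 in oxamate and 676 in control (0.47 for oxamate against control). Subunits of this complex thus lay on both sides of control. Cohesin and its regulators (15 genes) had a median of 0.01 for oxamate against control (-0.09 with equal gene totals). Of these genes, 2 (13.3%) were at least 0.32 log2 higher and none was lower, against 23.1% and 11.8% of all genes. SGO2, shugoshin 2, which protects centromeric cohesin and is listed under its older symbol SGOL2, had 460 in oxamate+lactate, 463 in oxamate and 336 in control (0.45 for oxamate+lactate and 0.46 for oxamate, each against control).

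Among the upstream regulators, the DREAM and MuvB list (13 genes over the floor) had a median of 0.04 for oxamate against control. The median was -0.06 with equal gene totals. By at least 0.32 log2, 3 genes (23.1%) were higher and 2 (15.4%) lower in oxamate, against 23.1% and 11.8% of all genes. The share of higher genes was thus that of all genes. TFDP2, a dimer partner of E2F factors, had 5155 in oxamate+lactate, 5228 in oxamate and 3655 in control (0.50 for oxamate+lactate and 0.52 for oxamate, each against control). RBL1, the pocket protein p107, had 411 in oxamate+lactate, 429 in oxamate and 560 in control (-0.45 and -0.38). E2F8, a repressing E2F factor, had 312 in oxamate+lactate, 330 in oxamate and 429 in control (-0.46 and -0.38). TFDP2 was above control, and RBL1 and E2F8 below it, in both treated libraries. MYBL2, the MuvB partner in G2, and RBL2, the pocket protein p130, were added after their values were seen. MYBL2 had 2578 in oxamate+lactate, 2889 in oxamate and 3521 in control (-0.45 and -0.29), and RBL2 had 1289 in oxamate+lactate, 1359 in oxamate and 1182 in control (0.12 and 0.20). Spindle genes outside the 58 (19 genes over the floor) had a median of 0.05 for oxamate against control and of -0.05 with equal gene totals. HAUS8, an augmin subunit, had 184 in oxamate+lactate, 233 in oxamate and 162 in control (0.18 and 0.52), and HAUS2, another, had 323 in oxamate+lactate, 323 in oxamate and 451 in control (-0.48 and -0.48). FAM83D, which positions a kinase on the spindle, had 175 in oxamate+lactate, 254 in oxamate and 198 in control, and its ratio of -0.53 for oxamate+lactate against oxamate was the lowest of the list.

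The lists of centriole duplication, of mitotic entry brakes and phosphatase control, and of condensin II with other chromosome genes had medians of -0.02, -0.09 and 0.09 for oxamate against control. With equal gene totals the medians were -0.12, -0.19 and -0.01. SASS6, the centriole cartwheel protein, had 200 in oxamate+lactate, 250 in oxamate and 287 in control (-0.52 for oxamate+lactate against control). BORA, the activator of AURKA, had 282 in oxamate+lactate, 250 in oxamate and 349 in control (-0.48 for oxamate against control). KIF18B, a kinesin of astral microtubules, had 886 in oxamate+lactate, 1158 in oxamate and 924 in control (-0.39 for oxamate+lactate against oxamate). These 3 were the lowest of their lists in the comparison given. For comparison with an earlier phase of the cycle, the median of 46 DNA replication genes was -0.15 for oxamate+lactate against control and -0.09 for oxamate against control, against -0.09 and 0.01 for the 58 mitotic genes, with none at least 0.32 log2 higher in either (11.4% and 23.1% of all genes were). Lower by that mark were 8 replication genes (17.4%) in oxamate+lactate and 6 (13.0%) in oxamate, each against control, where 12.4% and 11.8% of all genes were, and the counts became 5 in oxamate+lactate with equal ERCC sums and 14 in oxamate with equal gene totals. The difference between the mitotic and the replication genes was not tested.

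**Figure D5:**
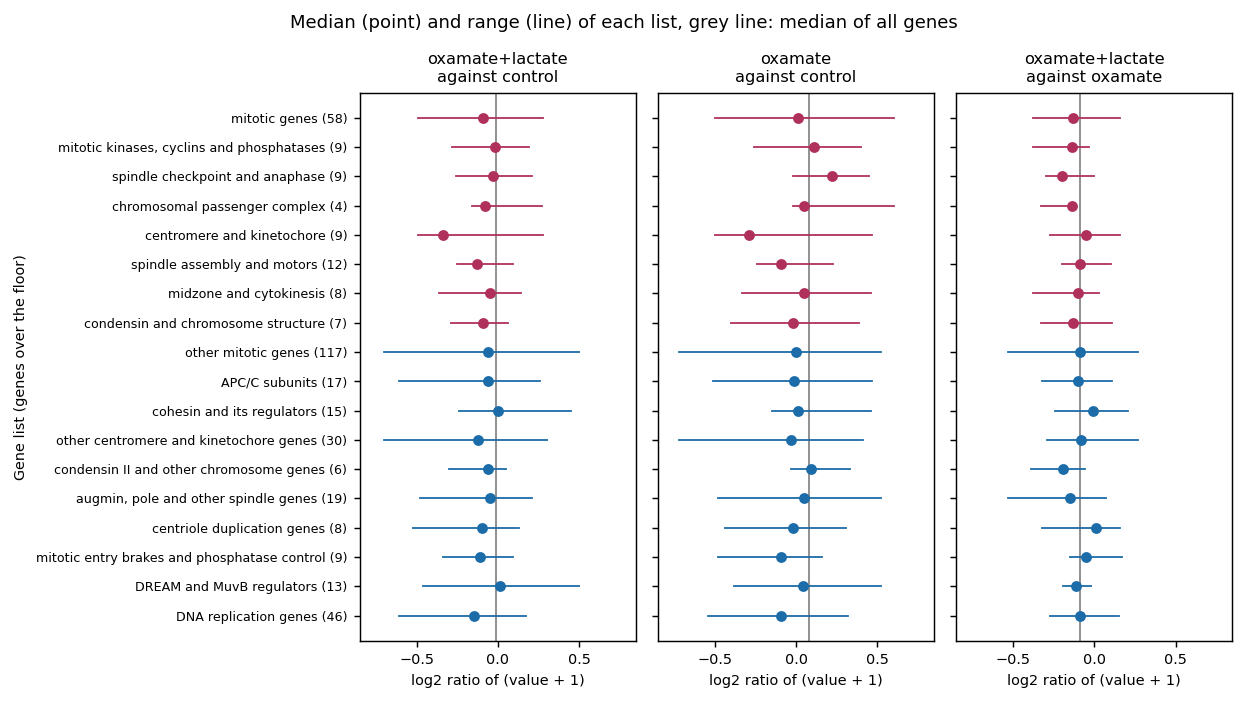
Median (point) and range (line) of the log2 ratio of (value + 1) for the 58 mitotic genes and their roles (red) and for the other lists (blue), in 3 pairs of libraries, with the number of genes over the floor in brackets. The 9 centromere and kinetochore genes have the lowest median of the red lists in both comparisons with control, at -0.34 and -0.29.

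For 18 of the 58 genes an exon overlaps that of another coding gene in GENCODE 29, and 12 have a pseudogene named after them. Among the 40 genes without such an overlap, 5 were at least 0.32 log2 higher and 5 lower in oxamate than in control, and 6 were lower in oxamate+lactate than in control. Over all genes 23.1% were higher and 11.8% lower in oxamate than in control, and 12.4% were lower in oxamate+lactate than in control. KIF20A and NCAPG, described above, are among the overlapping genes, and BUB1B shares exons with the readthrough gene BUB1B-PAK6.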

How the data were processed

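Polyadenylated RNA was sequenced in 3 libraries, 1 per condition. Per the labels' protocols, RNA was taken from equal cell numbers with ERCC spike-ins, and libraries came from a kit that does not mark strand. The submitters' processing notes name FastQC 0.11.9, STAR 2.7.1a, HTSeq 0.11.2 and build hg19. The deposited table holds what the authors call normalized counts, treated here as a score: whole numbers whose normalization no source used here states, which leaves the depth in reads unknown and allows no count model.

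Log2 ratios of (value + 1) were computed over 12292 genes with a mean of at least 50 normalized counts, with a log2 ratio of 0.32 and 1.5-fold as marks of size and no test. Alternatives were a pseudocount of 10, a floor of 200 or none, equal gene totals, equal ERCC sums, ratios relative to the median of all genes, means for medians and, added after the data were seen, removal of a GC trend (lowess fraction 0.3, statsmodels 0.14.6, GENCODE 29). The scripts were tested on simulated data with planted changes larger than both marks, which checks the code and neither calls at the smaller mark nor differences between cultures. The members and lists were chosen with earlier results of these data known. All 58 members were named. Other mitotic genes were named where 1.5-fold different in any comparison, or as the highest or lowest of their list. Promoters are RefSeq's on GRCh38.p14, matched by symbol, since the files' build differs. One result on a gene that overlaps a member is not reported here.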

Additional observations from a re-analysis of the deposited data

How the results depend on the processing

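No paired analysis was possible because each condition has 1 library and the labels give no replicate numbers, and for the same reason no library was left out. Of the medians and counts over the 58 genes, 93 values under an alternative were close to the reported one, 13 moved and 2 changed sign. The floor of 200 kept 57 of the 58 genes and no floor kept all 58, so these 2 settings could change little. The sign changes were in the median of oxamate against control, at -0.09 with equal gene totals and -0.07 relative to the all-gene median. Equal gene totals moved the median of all genes to -0.02 for that pair of libraries, against 0.08 as deposited.

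For oxamate against control, genes higher by at least 0.32 log2 numbered 4 with equal gene totals and 4 relative to the all-gene median, against 7 as deposited. Those lower by at least 0.32 log2 numbered 3 with the GC trend removed, against 6. At 1.5-fold none was higher with equal gene totals, relative to the all-gene median or with the GC trend removed (0 genes, against 1), and 1 was lower with equal gene totals. For oxamate+lactate against control, genes higher by 0.32 log2 numbered 2 with equal ERCC sums and 1 with the GC trend removed, against 0. For oxamate+lactate against oxamate, the median was -0.02 with equal gene totals, and genes lower by 0.32 log2 numbered 0 with equal gene totals, equal ERCC sums or ratios relative to the median, against 4. Single-gene ratios stayed close in 1232 cases and moved in 64, of which 55 were under equal gene totals and 9 with the GC trend removed. Of the 1232, 180 came from the floor of 200 and 186 from no floor, and neither setting can change a gene's ratio. Equal gene totals, equal ERCC sums and the all-gene median shift all genes of a pair by nearly the same amount. Their labels thus reflect the size of that shift and do not check genes singly. All 186 cases stayed close under equal ERCC sums, and all 186 did relative to the median. Close means a shift smaller than the ERCC SD of the pair, so a gene can stay close and still lose its call. No value of at least 0.32 log2 changed sign, but the shifts were too small for this to be a check.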
